A study of Mus musculus with 24 samples.

Results

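The liver transcriptomes of mice fed the control diets were compared by protein source, casein against free amino acids. The comparison took the 6 libraries whose labels give a casein control diet and the 6 whose labels give a control diet of elemental (free) amino acids, 12 of the 24 libraries of the series. All came from 4-month-old males of C57BL6/J, an inbred strain of laboratory mouse, and both control diets held 0.86% methionine. The other 12 libraries came from mice on methionine-restricted (MR) diets with 0.17% methionine, 6 with elemental amino acids and 6 with oxidised casein. They shared the estimate of the spread, and they gave a second comparison of protein source with no library in common with the first. The sample labels name oxidised casein for the MR diet only and plain casein for the control diet. They name each library by its diet and a number (E_C for elemental control, C_C for casein control). They give no amino acid other than methionine and no feeding or sampling time and no batch, and they do not say that each library is a separate mouse. The p-values therefore measure the spread between these libraries.

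Casein is the main protein of milk and is digested to peptides and amino acids in the gut, whereas the elemental diet supplies amino acids in free form. The liver receives absorbed amino acids first, through the portal vein, and breaks down or converts much of what exceeds the need for protein synthesis. In a cell short of an amino acid, uncharged transfer RNA activates the kinase GCN2, which slows translation in general and favours that of the transcription factor ATF4. ATF4 acts with C/EBP partners on composite sites in the promoters of genes for amino acid synthesis, transport and stress defence, and Asns, which makes asparagine, is a classic target.

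Between 13.5 and 20.8 M reads were counted per library, on average 17.2 ± 2.36 M for elemental control and 15.98 ± 1.68 M for casein control (SD, n = 6 each, two-sided exact permutation p = 0.355). Defining hepatocyte genes were detected in both groups, and the summed level of 15 hepatocyte markers was 141000 to 153000 CPM (read counts scaled to library size) in elemental control and 131000 to 150000 CPM in casein control. The share of albumin mRNA (Alb) was 7.42 ± 0.167% with elemental amino acids and 6.69 ± 0.594% with casein, the lowest of 4 exact permutation p-values on library measures (p = 0.0108, adjusted p = 0.0432). In the edgeR test of single genes described below, Alb did not reach an adjusted p under 0.05. Casein control library C_C_3407 stood apart from the rest of its group, with 145 genes at least 2-fold above the median of the other libraries, against 23 to 58 genes in each of the other 11.

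Few genes separated the control diets. Of 13441 genes tested, 14 (0.104%) were called at an adjusted p under 0.05 in edgeR's quasi-likelihood test with Benjamini-Hochberg adjustment, 4 higher with casein (0.0298%) and 10 lower (0.0744%). Of these, 6 differed at least 2-fold (0.0446% of genes tested). Vil1, which encodes the microvillus protein villin, Tcf24, which encodes a basic helix-loop-helix protein, and Asns had the largest falls among the called genes, and Rcan2, which encodes a regulator of the phosphatase calcineurin, had the largest rise. The libraries of the groups did not overlap for 12 of the 14 called genes, and the same held for 88 of all genes tested (0.655%). At an unadjusted p under 0.05 there were 796 higher genes (5.92%) and 782 lower genes (5.82%), together 11.7% of genes tested. The 95% interval of the fold change lay within 2-fold either way for 11887 genes (88.4%) and within 1.5-fold for 9201 (68.5%). DESeq2 called 90 genes, 47 of them higher, and limma-voom called 3, all lower. With upper quartile scaling edgeR called 2 higher and 10 lower genes. The count also moved when 1 library was left out. It was 33 without C_C_3407, 5 without E_C_3428, C_C_3421 or C_C_3436, 7 without E_C_3418, C_C_3413 or C_C_3429, and 9 without E_C_3417.

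**Figure D1:**
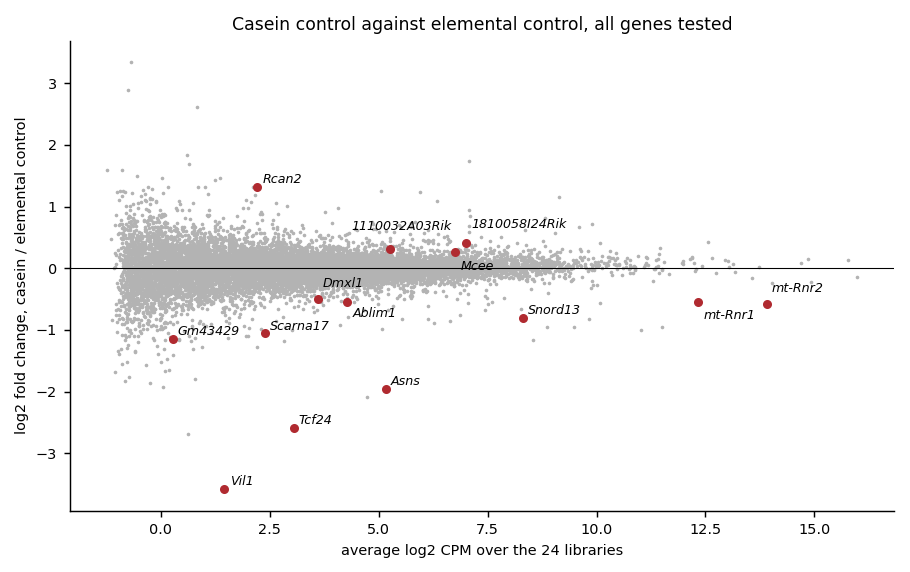
Log2 fold change of casein control against elemental control (vertical axis) plotted against average log2 CPM over the 24 libraries (horizontal axis) for the 13441 genes tested, with the 14 called genes in red. The called genes lie at all levels of expression, Vil1 has the lowest value of the plot at -3.58, and most genes sit near 0.

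**Figure D2:**
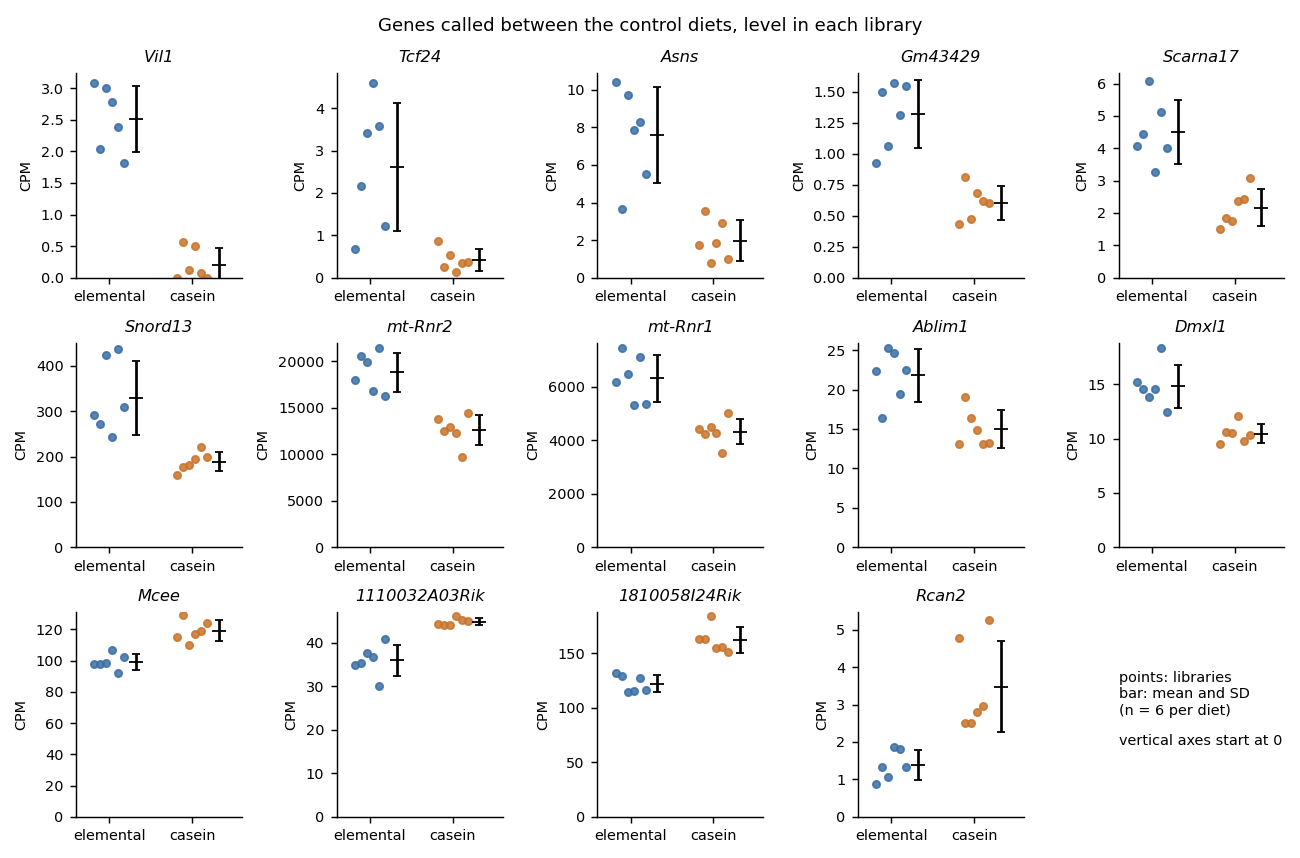
Level in CPM of each of the 14 called genes in every library of elemental control (blue) and casein control (orange), with the mean and SD of each group (n = 6). The 2 sets of points are separate for every gene but Tcf24 and Ablim1.

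Asns, asparagine synthetase, was measured at 3.67, 8.06 and 10.4 CPM in elemental control (lowest, median and highest library) and at 0.763, 1.81 and 3.56 CPM in casein control. The highest casein library thus lay just under the lowest elemental library. The means were 7.57 ± 2.55 and 1.97 ± 1.09 CPM (SD, n = 6 each), and Asns fell by 1.96 on the log2 scale (SE 0.256, edgeR adjusted p = 2.78e-04), a 3.89-fold lower level with casein. It was called in each of 12 fits with a library left out of these groups and by DESeq2 (adjusted p = 1.08e-09) and limma-voom (adjusted p = 0.014). On the MR diets Asns was at 70.6 ± 8.38 CPM with elemental amino acids and 62.3 ± 7.27 CPM with casein (log2 fold change -0.18, SE 0.177, edgeR adjusted p = 0.653). The difference between the protein source effects was itself called at -1.78 (SE 0.313, adjusted p = 0.0016).

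The 250 bases before the RefSeq start of Asns (GRCm38.p6, chr6:7693210-7693459, minus strand) are shown because Asns is the called gene whose promoter is best known for responding to amino acid supply. The capitals mark a match to the C/EBP-ATF composite motif TGATGNAAN, searched on both strands, which starts 23 bases before the gene start. Windows around this motif follow the promoter, from Asns and the other tested ATF4 targets with an unadjusted p under 0.05 and a match. The matches of Nupr1 and Vldlr read as the reverse complement, NTTNCATCA.
Asns promoter: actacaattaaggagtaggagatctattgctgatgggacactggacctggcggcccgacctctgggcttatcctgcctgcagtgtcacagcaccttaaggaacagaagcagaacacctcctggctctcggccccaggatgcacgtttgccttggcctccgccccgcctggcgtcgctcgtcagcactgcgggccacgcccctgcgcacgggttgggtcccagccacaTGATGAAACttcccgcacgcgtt
Asns window (chr6:7693210-7693248): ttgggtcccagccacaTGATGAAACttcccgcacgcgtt
Nupr1 window (chr7:126625557-126625597): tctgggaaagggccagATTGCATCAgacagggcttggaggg
Pycr1 window (chr11:120643827-120643867): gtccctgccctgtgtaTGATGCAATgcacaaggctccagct
Vldlr window (chr19:27216803-27216843): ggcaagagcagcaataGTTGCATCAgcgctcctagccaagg
The motif occurred in 1299 of 32851 RefSeq promoters of 300 bases (3.95%). Counted by gene, it occurred for 1215 of 27025 genes with such a promoter (4.5%) and for 13 of the 33 listed ATF4 targets found there (39.4%). Of the 10 ATF4 targets with an unadjusted p under 0.05, 9 were in the promoter table and 4 held the motif. Among them Pycr1 (log2 fold change -0.98) rests on few reads, 24 in all elemental control libraries and 11 in all casein control libraries. Nupr1 (-0.95) had 166 reads in E_C_3430, against 56 to 81 in the other elemental control libraries. A match is a run of letters and not a measured binding site.

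Of the 39 listed ATF4 targets tested, Asns was the only one called, against 0.104% of all genes. The list's median log2 fold change was -0.16, with 0.00227 over all genes. At an unadjusted p under 0.05, 8 members were lower and 2 higher, where the shares of all genes were 5.82% and 5.92%. These shares also apply to the list counts in the paragraphs that follow. DESeq2 called 2 members lower, against 43 of all 13441 genes. Vldlr, the very-low-density lipoprotein receptor, was the other DESeq2 call. Its level was 1.73, 2.67 and 4.11 CPM in elemental control and 0.873, 1.97 and 2.10 CPM in casein control, so the groups overlapped (log2 fold change -0.71, SE 0.211, edgeR adjusted p = 0.172). Atf5, a transcription factor of the same stress pathway, was at 365 ± 54.9 and 277 ± 35.4 CPM (-0.40, SE 0.113, edgeR adjusted p = 0.165). Psat1, an enzyme of serine synthesis, was at 1.85 ± 0.353 and 0.952 ± 0.565 CPM (-0.91, edgeR adjusted p = 0.298). Aldh18a1, which starts proline synthesis, had no overlap between the groups, from 0.484 to 0.731 CPM in elemental control and from 0.081 to 0.450 CPM in casein control, but it was not called (adjusted p = 0.367). Its levels rest on few reads, 8 to 10 per elemental control library and 1 to 7 per casein control library. The members with an unadjusted p under 0.05 on the higher side were Ddit4, an inhibitor of mTORC1 (0.63), and Gpt2, an alanine transaminase (0.26). Fgf21, a hormone released by the liver when amino acids are scarce, ranged from 0.967 to 14.2 CPM in elemental control and from 0.567 to 4.98 CPM in casein control, and its 95% interval ran from -2.63 to 0.28.

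The lists for serine and folate metabolism, tRNA charging, amino acid transport and the methionine cycle held no gene called by edgeR. For their counts at an unadjusted p under 0.05, the shares of all genes were 5.82% lower and 5.92% higher. None of the 24 genes of serine, glycine and mitochondrial folate metabolism was called (2 lower and 0 higher at an unadjusted p under 0.05, 0 by DESeq2 and by limma-voom). None of the 20 cytosolic aminoacyl-tRNA synthetases was called (2 lower, 0 higher, 0 by either other tool), and the 95% interval of all 20 lay within 1.5-fold. Of 30 amino acid transporters 0 were called by edgeR, and DESeq2 called Slc6a6, the taurine transporter, which was at 127 ± 16.6 CPM with elemental amino acids and 99.5 ± 11.7 CPM with casein (-0.36, edgeR adjusted p = 0.152). In the methionine cycle and transsulfuration list 0 of 33 genes were called (5 lower and 2 higher at an unadjusted p under 0.05, 0 by either other tool). Its smallest p belonged to Enoph1 of the methionine salvage pathway, at 2.61 ± 0.383 and 1.80 ± 0.412 CPM (-0.53, edgeR adjusted p = 0.165).

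Among genes of amino acid breakdown, Mcee rose with casein. Mcee, methylmalonyl-CoA epimerase, acts late in the breakdown of valine, isoleucine, threonine and methionine. It was at 91.8, 98.2 and 107 CPM in elemental control and at 110, 118 and 129 CPM in casein control, with every casein library above every elemental one. The log2 fold change was 0.26 (SE 0.0543, edgeR adjusted p = 0.0467), and Mcee was called in 2 of 12 fits with a library left out. It was the only one called of 23 genes of branched-chain amino acid breakdown, whose median was 0.05 and whose intervals all lay within 1.5-fold. Hsd17b10, an enzyme of isoleucine breakdown, was at 160 ± 16.8 and 209 ± 32.1 CPM (0.38, SE 0.0828) and missed the threshold in edgeR (adjusted p = 0.0627) but not in DESeq2 (adjusted p = 0.00608). No gene was called among 24 of aromatic amino acid, tryptophan and histidine breakdown (2 higher and 0 lower at an unadjusted p under 0.05) or among 23 of lysine, proline, serine and threonine breakdown (6 higher, 1 lower). Over all genes the shares at that limit were 5.92% higher and 5.82% lower. DESeq2 and limma-voom called 0 in both lists. In the urea cycle and ammonia list 0 of 17 were called (3 higher, 1 lower), and DESeq2 called Glul, glutamine synthetase, at 948 ± 66.6 and 1147 ± 127 CPM (0.28, edgeR adjusted p = 0.165).

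Vil1 had the lowest fold change of all genes tested. Villin bundles actin in the microvilli of the intestinal brush border and of bile canaliculi. Its mRNA was at 1.82, 2.58 and 3.08 CPM in elemental control, from 34 to 50 reads per library, and at 0, 0.0933 and 0.567 CPM in casein control, from 0 to 8 reads. The groups were far apart, and 2 casein libraries had 0 reads. Vil1 fell by 3.58 on the log2 scale (SE 0.456, edgeR adjusted p = 2.78e-04), from group means of 2.52 ± 0.520 and 0.209 ± 0.256 CPM. That value depends on 18 reads in all casein control libraries together. On the MR diets the same direction was seen, with 7.72 ± 1.83 CPM with elemental amino acids and 0.0605 ± 0.100 CPM with casein, from 7 reads in all (log2 fold change -6.83, SE 0.484). The summed level of cholangiocyte markers, genes of the bile duct epithelium, was 45.6 to 70.0 CPM in elemental control and 58.3 to 93.2 CPM in casein control, and 0 of the 8 tested was called (1 higher and 0 lower at an unadjusted p under 0.05, 0 by either other tool). Usp37, which overlaps the end of Vil1 on the opposite strand, was at 3.27 ± 0.997 and 3.14 ± 0.818 CPM (adjusted p = 0.923). The 250 bases before the RefSeq start of Vil1 (GRCm38.p6, chr1:74409134-74409383, plus strand) are shown beside the Asns promoter because these are the called genes with the smallest p, and they hold no match to TGATGNAAN on either strand.
Vil1 promoter: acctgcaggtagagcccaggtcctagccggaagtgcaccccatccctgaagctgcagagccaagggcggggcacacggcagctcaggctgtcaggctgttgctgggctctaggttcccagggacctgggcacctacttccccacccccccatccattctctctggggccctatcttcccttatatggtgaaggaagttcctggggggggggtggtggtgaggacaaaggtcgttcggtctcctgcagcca

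Rcan2 rose with casein. It was at 0.863, 1.33 and 1.87 CPM in elemental control and at 2.51, 2.89 and 5.25 CPM in casein control, with no overlap. The log2 fold change was 1.32 (SE 0.234, edgeR adjusted p = 0.0168), a 2.50-fold higher level. On the MR diets Rcan2 was at 2.64 ± 0.602 CPM with elemental amino acids and 10.2 ± 2.41 CPM with casein (1.95, SE 0.206), and the difference between the effects was not called (-0.63, adjusted p = 0.425). Vil1 and Rcan2 were the genes called in the same direction on both pairs of diets. Rcan2 was called in each of 12 fits with a library left out, but not with limma-voom (adjusted p = 0.0969) or in a fit of the 12 libraries alone (adjusted p = 0.0934).

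Tcf24 was at 0.678, 2.79 and 4.60 CPM in elemental control and at 0.125, 0.360 and 0.871 CPM in casein control. A single pair overlapped, C_C_3407 lying above E_C_3401, and the elemental libraries were widely spread (2.61 ± 1.505 CPM). Tcf24 fell by 2.58 on the log2 scale (SE 0.389, edgeR adjusted p = 0.00224) and was called in each of 12 fits with a library left out, but not with limma-voom (adjusted p = 0.122) or in a fit of the 12 libraries alone (adjusted p = 0.0746). Its level on the MR diets was 17.4 ± 2.77 CPM with elemental amino acids and 11.7 ± 1.44 CPM with casein (-0.57, adjusted p = 0.15), and the effects differed by -2.02 (adjusted p = 0.014). Ppp1r42, the gene just upstream on the same strand, was at 0.907 ± 0.646 and 0.256 ± 0.104 CPM (-1.80, SE 0.428, adjusted p = 0.112). Neighbouring genes were looked up after the values were seen, and no source used here gives the strand of the libraries, so reads of overlapping genes cannot be told apart.

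The mitochondrial ribosomal RNAs were lower with casein. The 16S rRNA gene mt-Rnr2 was at 16300, 18900 and 21400 CPM in elemental control and 9730, 12700 and 14400 CPM in casein control. The 12S rRNA gene mt-Rnr1 was at 5340, 6330 and 7460 CPM and at 3540, 4350 and 5010 CPM. Neither gene had overlapping groups. They fell by 0.58 (SE 0.103, edgeR adjusted p = 0.0168) and by 0.55 (SE 0.106, adjusted p = 0.0344) on the log2 scale. Without E_C_3428 the edgeR adjusted p of mt-Rnr2 was 0.0508, and without C_C_3436 it was 0.0520. The share of reads from both rRNAs together was 2.36 ± 0.331% and 1.58 ± 0.216%, while that of all other mitochondrial transcripts was 12.5 ± 1.25% and 12.7 ± 0.943% (elemental control first). In edgeR mt-Rnr1 was called in 5 of 12 fits with a library left out (highest adjusted p = 0.103), and it missed the threshold with limma-voom (adjusted p = 0.0543) and in a fit of the 12 libraries alone (adjusted p = 0.0733). Of 10 listed mitochondrially encoded genes 2 were called, both rRNAs, against 0.104% of all genes. At an unadjusted p under 0.05, 5 of the 10 were lower and 0 higher, against 5.82% and 5.92% of all genes, and the list's median was -0.19. DESeq2 also called mt-Nd6 (-0.66, edgeR adjusted p = 0.165), the one mRNA gene on the other strand of the mitochondrial genome. The mRNA mt-Nd2 was at 21450 ± 1461 and 18230 ± 1401 CPM (-0.23, SE 0.0727, edgeR adjusted p = 0.197), with a slight overlap of the groups. The mRNA mt-Nd4 was at 64020 ± 10420 and 70140 ± 8544 CPM (0.13, edgeR adjusted p = 0.626), and the 95% interval of mt-Co1 ran from -0.19 to 0.06. On the MR diets the rRNA share was 2.11 ± 0.318% with elemental amino acids and 2.15 ± 0.190% with casein, and the difference between the effects was called for mt-Rnr2 (-0.54, adjusted p = 0.0441) and not for mt-Rnr1 (-0.36, adjusted p = 0.293).

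Small structured RNAs were among the other called genes. Snord13, a small nucleolar RNA that guides acetylation of 18S rRNA, was at 243, 300 and 437 CPM in elemental control and 159, 188 and 220 CPM in casein control (-0.81, SE 0.165, edgeR adjusted p = 0.0467). Scarna17, a small RNA of Cajal bodies, where spliceosomal RNAs are modified, was at 3.26, 4.26 and 6.09 CPM and at 1.49, 2.12 and 3.08 CPM (-1.05, SE 0.204, adjusted p = 0.0344). Neither had overlapping groups, and they were called in 1 and 5 of 12 fits with a library left out. Classes of RNA were examined after these values were seen. All 5 small Cajal body RNAs tested, all 10 mitochondrial tRNAs and 24 of 33 small nucleolar RNAs had a log2 fold change under 0, with medians of -0.66, -0.57 and -0.45, against 6632 of all 13441 genes and a median of 0.00227. On the MR diets the medians of these classes were 0.44, -0.30 and 0.21. Among other short RNAs on the control diets, 9 of 15 small nuclear RNAs and 4 of 8 microRNAs were under 0, with medians of -0.19 and -0.00769. The control and MR effects differed by -0.94 for Snord13 (edgeR adjusted p = 0.0244) and by -1.26 for Scarna17 (adjusted p = 0.0085). The sources used here do not say how RNA was selected, and the recovery of such short RNAs with these libraries was not tested.

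Fold changes also followed transcript length to a small degree. Across 10253 protein-coding genes the rank correlation of log2 fold change with merged exon length was -0.165 for the control diets and -0.0292 for the MR diets, a description across genes of the same libraries. The median log2 fold change went from 0.0367 in the fifth of genes with the shortest transcripts to -0.033 in the fifth with the longest. The slope of log2 CPM on the log2 of length was most negative in C_C_3436 (-0.0542) and C_C_3429 (-0.0354), while the other casein control libraries ran from -0.0151 to 0.00444, against -0.0149 to 0.0324 in elemental control. With the length trend removed in each library, a step chosen after the data were seen, 10 genes were called. Mcee (0.22, adjusted p = 0.126), Ablim1 (-0.50), Dmxl1 (-0.42) and 1810058I24Rik (0.39, adjusted p = 0.0807 for each of the 3) missed the threshold. Asns (-1.98), Vil1 (-3.59), Rcan2 (1.32), Tcf24 (-2.59), mt-Rnr2 (-0.61) and mt-Rnr1 (-0.59) were called with values close to the first.

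The remaining called genes changed by less than 1.5-fold, except Gm43429, which has a low level. Ablim1, an actin-binding LIM protein, was at 16.4, 22.5 and 25.3 CPM in elemental control and 13.1, 14.1 and 19.1 CPM in casein control, with some overlap (-0.54, SE 0.107, edgeR adjusted p = 0.0389). Dmxl1, a protein linked to the assembly of the vacuolar proton pump, was at 12.5, 14.6 and 18.4 CPM and at 9.51, 10.4 and 12.1 CPM, without overlap (-0.50, SE 0.0943, adjusted p = 0.0271). The remaining 3 called genes fell outside the rule for named genes and are given because they complete the 14. 1110032A03Rik (0.32, adjusted p = 0.0391) varied little in casein control, from 44.0 to 46.2 CPM, and lay between 30.1 and 40.9 CPM in elemental control. 1810058I24Rik (0.41, adjusted p = 0.0459) was at 122 ± 8.14 and 162 ± 11.9 CPM. Gm43429 (-1.14, adjusted p = 0.0271), a predicted gene inside Slc39a8, was at 1.32 ± 0.275 and 0.604 ± 0.139 CPM, while Slc39a8, a zinc and manganese transporter, was at 22.7 ± 1.52 and 22.7 ± 3.50 CPM. Of 12 fits with a library left out, Dmxl1 was called in 7, Gm43429 in 6, and Ablim1 and both RIKEN genes in 2 each.

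A fixed set of 24 genes of liver metabolism, named whatever their values, included 1 called gene, Asns. The lowest adjusted p among the other 23 was 0.253, 4 of them had an unadjusted p under 0.05, and the 95% interval lay within 2-fold for 16 and within 1.5-fold for 11. Over all genes these shares were 11.7%, 88.4% and 68.5%. Bhmt, which remethylates homocysteine with betaine, was at 840 ± 214 and 892 ± 196 CPM (0.09, 95% interval -0.29 to 0.47). Gnmt, which disposes of surplus methyl groups, was at 2076 ± 269 and 2078 ± 332 CPM (interval -0.22 to 0.22). Igf1, the main circulating growth factor made by liver, was at 1256 ± 114 and 1303 ± 207 CPM (interval -0.12 to 0.23), and Mat1a, which makes S-adenosylmethionine, had an interval from -0.18 to 0.29. Intervals were wide for lipid genes. Those of Scd1, the main fatty acid desaturase (-0.63 to 0.60), and Fasn, fatty acid synthase (-0.40 to 0.78), allowed a change of 1.5-fold either way or upwards. Fasn ran from 275 to 518 CPM in elemental control and from 171 to 805 CPM in casein control, and the reason for this spread was not tested. Cyp4a14, a fatty acid hydroxylase under PPARalpha with close paralogs, had the lowest adjusted p of the 23. It was at 202, 731 and 1270 CPM in elemental control and 126, 432 and 699 CPM in casein control (-0.95, SE 0.334). Gclc of glutathione synthesis was at 358 ± 59.9 and 304 ± 44.4 CPM (-0.24, adjusted p = 0.394). Phgdh was near 0 in both groups, at 0.111 ± 0.0907 and 0.0860 ± 0.0897 CPM, and no fold is given.

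**Figure D3:**
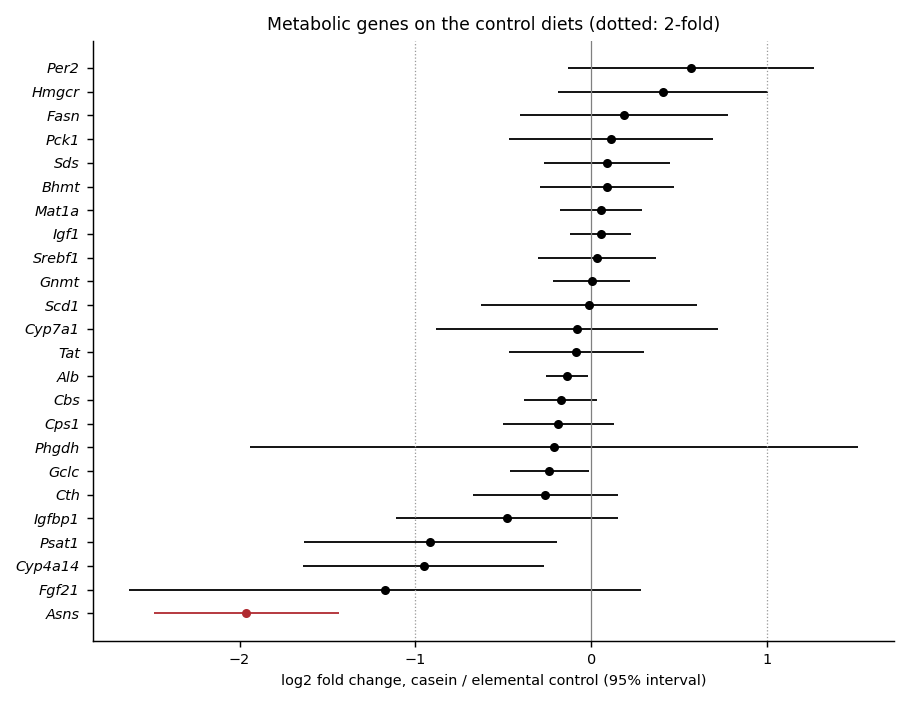
Log2 fold change of casein control against elemental control (horizontal axis) with its 95% interval for 24 genes of liver metabolism (vertical axis), in red where called. The interval of Asns lies wholly below -1 (dotted line, 2-fold), and those of 16 of the other 23 genes lie within 2-fold.

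Outside amino acid metabolism no listed group held a called gene other than the mitochondrial one. For the list counts at an unadjusted p under 0.05, the shares of all genes tested were 5.92% higher and 5.82% lower. Among 45 interferon-stimulated genes 0 were called, 15 were higher and 0 lower at that limit, and the median was 0.30. DESeq2 called 2 of them higher, against 47 of all 13441 genes, and limma-voom called 0. Ifi27, an interferon-induced mitochondrial protein, had no overlap between the groups, with 90.3 to 124 CPM in elemental control and 128 to 226 CPM in casein control (0.59, SE 0.128, edgeR adjusted p = 0.0627, DESeq2 adjusted p = 0.00418). Psmb8, a subunit of the immunoproteasome, was at 32.1 ± 8.30 and 43.8 ± 5.30 CPM (0.45, edgeR adjusted p = 0.155). The summed level of MHC class II genes, which mark antigen-presenting cells, started at 137 CPM with a median of 216 CPM in elemental control. In casein control it started at 211 CPM with a median of 295 CPM. The groups overlapped in part. E_C_3427, E_C_3428 and E_C_3430 lay below every casein control library, and the other elemental control libraries lay within the casein range. The summed level of lymphocyte and neutrophil markers was 62.5 to 137 CPM in elemental control and 86.6 to 168 CPM in casein control. C_C_3407 had the highest sum in both lists, with E_C_3417 just below it for MHC class II, and the part of immune cells in the interferon values was not tested. Fewer cells of a type and less RNA per cell cannot be told apart in such bulk samples. Of 32 acute phase proteins 0 were called, with 10 higher and 0 lower at an unadjusted p under 0.05 (0 by DESeq2 and limma-voom, median 0.14).

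ER chaperones and unfolded protein response genes had 0 of 28 called, with 9 lower and 0 higher at an unadjusted p under 0.05 and a median of -0.14, and 0 were called by the other tools. Manf, a secreted ER stress protein, was at 170 ± 25.9 and 120 ± 35.6 CPM (-0.50, edgeR adjusted p = 0.225). Core clock and output genes had 0 of 22 called by any of the 3 tools, with 5 lower and 0 higher at an unadjusted p under 0.05. The list's median was nevertheless above 0, at 0.14, with members from -1.13 to 1.08. Clock was at 46.7 ± 5.44 and 37.5 ± 7.58 CPM (-0.32, edgeR adjusted p = 0.211), and Per2, which cycles over the day, was at 7.31 ± 3.10 and 10.9 ± 3.48 CPM (0.57, adjusted p = 0.542). Among 36 male-biased liver genes 7 were higher and 1 lower at an unadjusted p under 0.05, with 0 called by any tool. Mup17, a major urinary protein whose reads may be shared with near-identical copies, did not overlap, with 44.4 to 155 CPM in elemental control and 176 to 641 CPM in casein control (1.74, SE 0.49, edgeR adjusted p = 0.165). PPARalpha targets and fatty acid oxidation had 0 of 51 called (1 higher, 3 lower), cholesterol synthesis and uptake 0 of 27 (0 higher, 1 lower), fatty acid and triglyceride synthesis 0 of 30 (0 higher, 1 lower), and gluconeogenesis, glycolysis and fructose entry 0 of 29 (0 in either direction). DESeq2 and limma-voom called 0 in these 4 lists.

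Markers of red blood cells had the lowest median of the lists, at -0.97, with 7 of 9 genes lower at an unadjusted p under 0.05 and 0 called by any of the 3 tools. Their summed level was 3120, 6020 and 7500 CPM in elemental control and 2010, 2770 and 3700 CPM in casein control, so the groups overlapped. The beta-globin gene Hbb-bt was at 589 ± 210 and 263 ± 73.4 CPM (-1.16, edgeR adjusted p = 0.289), and its reads may be shared with its near-identical partner Hbb-bs. Pericentral hepatocyte markers, genes of the zone around the central vein, summed to 12900 to 14600 CPM in elemental control and 13900 to 18600 CPM in casein control. Of these 28 genes edgeR called 0 and DESeq2 called 3 higher, where DESeq2 called 47 of all 13441 genes higher. One of the 3 was Cyp2e1, an ethanol-oxidising enzyme, at 2677 ± 226 and 3362 ± 410 CPM (0.33, edgeR adjusted p = 0.112). Sums for periportal hepatocytes (89900 to 98700 and 81500 to 95200 CPM), Kupffer cells and macrophages (716 to 1060 and 678 to 1060 CPM), endothelial cells (846 to 898 and 808 to 891 CPM) and stellate cells and fibroblasts (553 to 642 and 550 to 630 CPM) overlapped. The periportal list includes Alb, at 7.42% and 6.69% of reads, so its sum mostly follows Alb. Of its 24 genes edgeR called 0, and DESeq2 called Pigr higher (0.45) and Etnppl lower (-0.75). Over all 13441 genes DESeq2 called 47 higher and 43 lower. The part of these shifts in the called genes was not tested.

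**Figure D4:**
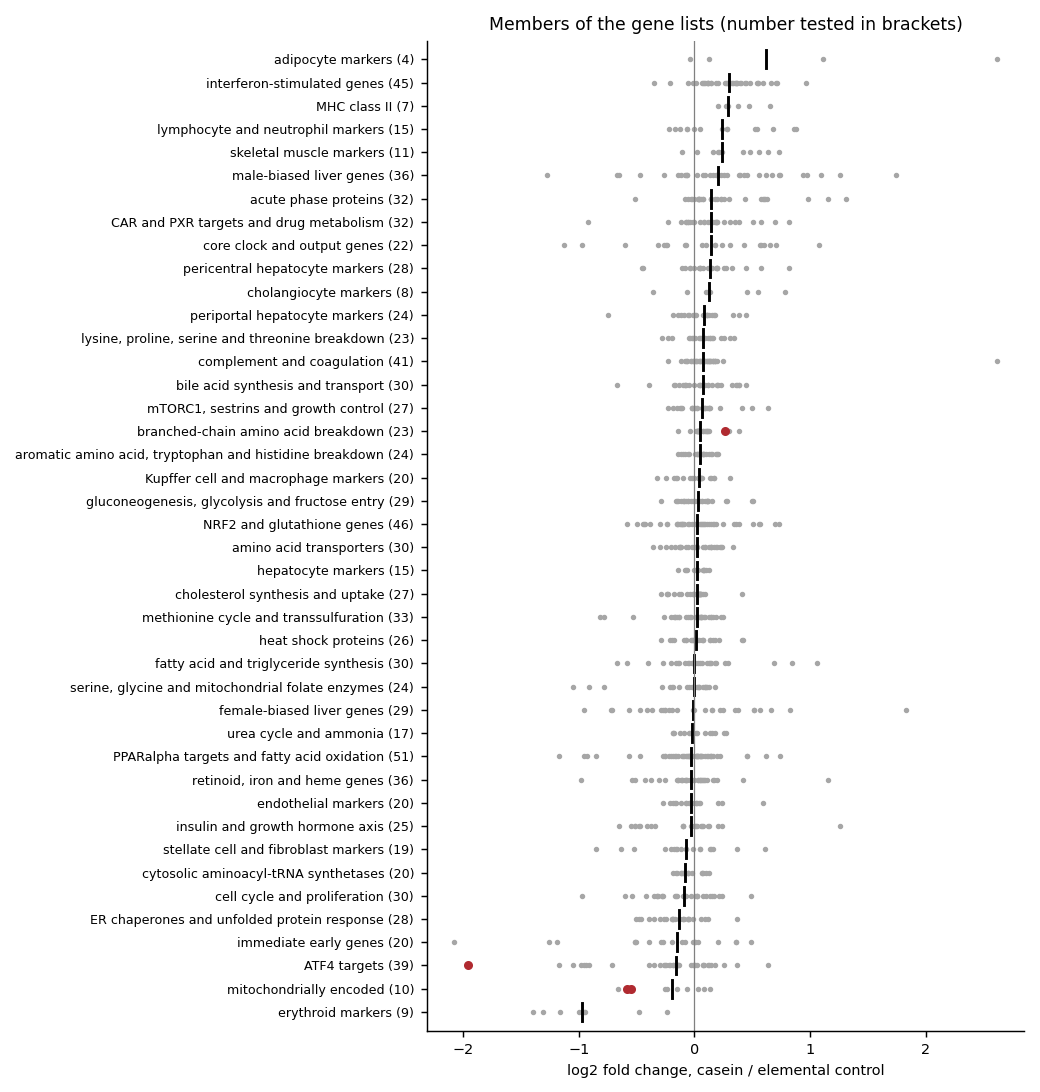
Log2 fold change of casein control against elemental control (horizontal axis) for each tested member (points) of the lists with at least 4 tested genes, with the list's median as a bar and called genes in red. Red blood cell markers lie lowest, with a median of -0.97, and the 4 red points are Asns, Mcee, mt-Rnr1 and mt-Rnr2.

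The protein source had a different reach on the MR diets, which have their own 12 libraries. The labels name the casein of the MR diet as oxidised. Methionine level and oxidation of the casein therefore cannot be told apart when the MR comparison is set beside the control one. On the MR diets 873 of the 13441 genes (6.5%) were called, 365 higher (2.72%) and 508 lower (3.78%) with casein. Casein MR library C_MR_3438 had 14142 reads of Acta1, skeletal muscle actin, against 18 to 324 in the rest of its group. All 11 skeletal muscle markers tested were called higher on the MR diets. The MR calls without that library were not tested. Of those 873 genes, 2 were called on the control diets, Vil1 and Rcan2. Their median absolute log2 fold change was 0.461 on the MR diets, the contrast that chose them, and 0.111 on the control diets, where that of all genes was 0.113. The direction was the same on both pairs of diets for 519 of the 873 (59.5%), against 56.5% of all genes. The difference between the effects, tested as an interaction, was called for 315 genes (2.34%), 210 with a positive value (1.56%) and 105 with a negative one (0.781%), and these included 8 of the 14 called on the control diets, namely Asns, Tcf24, Vil1, mt-Rnr2, Snord13, Scarna17, Mcee and Gm43429. Vil1 had the same direction on both and a larger fall on the MR diets, by 3.25 on the log2 scale (adjusted p = 0.0423). For the other 7 the value was farther from 0 on the control diets, and for Snord13 (0.13), Scarna17 (0.21), Gm43429 (0.11) and Mcee (-0.10) the MR value had the opposite sign, with none of the 4 called there. The 14 genes were chosen by their control effect, which enters the difference. That choice favours both a called difference and a larger value on the control diets.

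**Figure D5:**
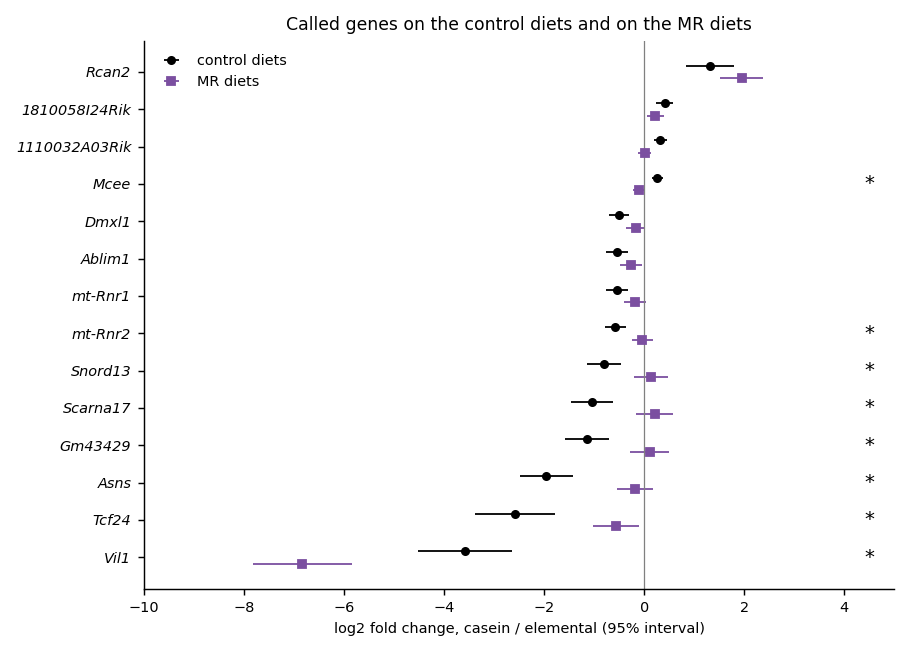
Log2 fold change of casein against elemental amino acids (horizontal axis) with its 95% interval for the 14 genes called on the control diets (vertical axis), with circles for the control diets and squares for the MR diets, where the casein was oxidised. A star marks the 8 genes whose effects differed between the diets at an adjusted p under 0.05 in edgeR, and Vil1 and Rcan2 are the genes called on both.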

How the data were processed

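RNA from 24 mouse liver samples was sequenced, starting from total RNA per the labels. Whole-number read counts for 15161 Ensembl genes in every library were deposited by the authors. Each gene has at least 72 reads over the 24 libraries. The deposited normalized table holds a signal that equals these counts divided by 1 size factor per library (0.745 to 1.32) and was not used in tests. RNA selection, strand, aligner, read counter and genome build are details not given in the sources used here.

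The counts were tested with edgeR 4.0.16 (R 4.3.3). The filterByExpr step left 13441 genes and 99.93% of reads. Scaling used trimmed means of M values (TMM), and a quasi-likelihood model with 1 mean for each group was fitted to all 24 libraries. The comparison was casein control minus elemental control, beside casein MR minus elemental MR and the difference between them. P-values were adjusted over all genes (Benjamini-Hochberg), and an adjusted p under 0.05 made a gene called. CPM use the TMM-scaled library size. Mean ± SD are over libraries. Intervals are 95% intervals from the fit. The 30 pairs of libraries within the groups held 0 identical pairs. Totals of 13.5 to 20.8 M reads limit precision for genes of a few reads, and the median half-width of the log2 interval was 0.266.

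Named genes were the called ones, without predicted or clone names and with log2 CPM averaging 1 or more, that had the 15 highest and 15 lowest log2 fold changes or the 5 smallest p in each direction. The rule also took for each list up to 6 called members and the 2 uncalled ones with the smallest p, 8 genes in each direction of the difference, and 24 fixed genes. The results of some genes are not reported here. Other genes, the neighbours, the RNA classes and the motif were chosen after values were seen. The members, the lists and the fixed genes were chosen with earlier results of these data known. Lists are described by counts and medians without a test. The 4 library measures were tested by exact permutation (two-sided). The code was tested on simulated data. Lengths, classes and neighbours of genes came from GENCODE, and promoters from RefSeq (GRCm38.p6). The table of RefSeq promoters held 27025 genes.

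Other settings were upper quartile scaling, DESeq2 size factors, leaving out the filter, a filter of 1 CPM in every library of a group, DESeq2's Wald test (version 1.42.0), limma-voom with quality weights (limma 3.58.1), a robust prior, the 12 libraries alone, 1 surrogate variable (sva 3.50.0), an adjusted p under 0.01, a 2-fold limit and leaving out single libraries. Removal of the length trend was added after the data were seen. No sample was left out, and 0 per-sample columns were unused.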

Additional observations from a re-analysis of the deposited data

Results flagged for a closer look

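In 82 groups of values per library examined, 2 had a library far from the others, where chance gives about 1 in 20, and both were for Fgf21. Elemental control library E_C_3428 was at 14.2 CPM, with the others of its group from 0.967 to 4.22 CPM. Casein control library C_C_3436 was at 4.98 CPM, with the others of its group from 0.567 to 2.0 CPM.

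For the 24 genes given here the effect of protein source on the control diets differed from that on the MR diets in edgeR's interaction test. Since the MR casein was oxidised, methionine level and oxidation of the casein cannot be told apart in these differences. The differences below are the control effect minus the MR effect on the log2 scale. Among genes called on the control diets they were -1.78 for Asns, -2.02 for Tcf24, 3.25 for Vil1, -0.54 for mt-Rnr2, -0.94 for Snord13, -1.26 for Scarna17, -1.25 for Gm43429 and 0.37 for Mcee. The other 16 genes were not called on the control diets. They were taken for the smallest p of the interaction test, 8 in each direction, so their passing it was fixed by that choice. Among enzymes of methyl group and one-carbon metabolism the difference was 2.74 for Bhmt and 0.82 for Dmgdh. Bhmt was at 840 ± 214 and 892 ± 196 CPM on the control diets (elemental and casein) and at 587 ± 167 and 93.2 ± 22.4 CPM on the MR diets. The difference was -2.08 for Lpl, lipoprotein lipase, -1.29 for Retsat and 1.07 for Rdh5 of retinoid metabolism, and -1.16 for Hsd17b11, a lipid droplet enzyme. Lpl was at 40.5 ± 8.44 and 36.7 ± 4.26 CPM on the control diets and at 42.3 ± 14.98 and 161 ± 60.2 CPM on the MR diets. Its highest casein MR library was C_MR_3438 at 264 CPM, with the others from 95.8 to 188 CPM. Genes of secreted or transported proteins gave 1.32 for Pigr, the polymeric immunoglobulin receptor, 0.93 for Mug2 and 0.65 for Serpina1b, both protease inhibitors with close paralogs. The rest were -2.41 for the imprinted gene Peg3, 2.80 for Ncam2, -1.47 for Serinc2, -0.89 for Nrp2, 1.99 for Nat8, -2.33 for Adgrg2 and -0.99 for Nt5dc2.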

How the results depend on the processing

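No paired analysis was possible because the groups share no library numbers. No called gene changed sign under any alternative run. The count of 14 called genes (4 higher, 10 lower) became 90 (47 and 43) with DESeq2, which left 2892 genes without an adjusted p and held 13 of the 14, the other being Gm43429, which had none. It became 3 (0 and 3) with limma-voom, 7 (1 and 6) with the 12 libraries alone, 3 (0 and 3) at an adjusted p under 0.01 and 6 (1 and 5) with a 2-fold limit. Higher genes were 2 with upper quartile scaling, 2 with no filter and 2 with the length trend removed, and lower genes were 17 with 1 surrogate variable. The cause was not tested, other than fewer libraries or a stricter limit by construction. Leaving out single libraries gave 5 to 33 genes, 1 to 14 higher and 4 to 19 lower. The difference between the diets was called for 315 genes, 297 with upper quartile scaling and 458 with DESeq2. Genes under about 1 CPM rest on few reads, and wide intervals there do not show equal levels.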

Other observations

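Some genes just missed the threshold in edgeR. Golga4, which encodes a Golgi tether, was at 73.7 ± 3.45 CPM with elemental amino acids and 57.1 ± 6.59 CPM with casein, without overlap (-0.37, adjusted p = 0.0584), and Mesd, a chaperone of lipoprotein receptors, was at 22.6 ± 1.74 and 18.5 ± 0.838 CPM, without overlap (-0.29, adjusted p = 0.0584). Atp2a2, the calcium pump of the ER, was at 131 ± 9.46 and 98.4 ± 7.97 CPM, without overlap (-0.41, adjusted p = 0.0642). Hspb8, a small heat shock protein, was at 246 ± 21.7 and 327 ± 49.8 CPM (0.41, adjusted p = 0.0627). Golga4, Atp2a2 and Hspb8 were called with a robust prior for the spread, and all 4 with DESeq2. These genes were chosen after their values were seen.

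The spread within the groups was similar in size. Over 10763 genes the median SD of log2 CPM was 0.175 in elemental control and 0.188 in casein control, and it was larger in casein control for 6167 genes and in elemental control for 4596. The first principal component of the 12 libraries held 15% of the variance. On it, casein control libraries ran from -11.1 to 21.4 and elemental control libraries from -32.5 to -1.7. The groups overlapped through C_C_3407 alone, and every other casein control library, from -0.53 upwards, lay above every elemental control library. The lowest casein value belonged to library C_C_3407 and the lowest elemental value to library E_C_3428.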
